A study of Mus musculus with 12 samples.

Results

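The 43 genes described here encode proteins that carry a cell through G2 and mitosis. They were chosen by function, as listed symbols among the 23284 of the expression table, and fall into 8 classes, which are entry kinases and cyclins, the chromosomal passenger complex, kinetochore and checkpoint proteins, proteins of mitotic exit and protein degradation, spindle proteins, cytokinesis proteins, chromosome structure proteins and transcription factors. All 43 were in the table, none was repeated, and all 43 had at least 1 FPKM (fragments scaled by transcript length and by the fragments of the library) in at least 3 libraries, the filter used for testing. RNA sequencing was done on total RNA of mouse cells sorted as CD31- CD45- α7-integrin+ VCAM+, a surface pattern that selects muscle stem and progenitor cells. There were 12 libraries in 4 groups of 3.

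The transplant group came from tibialis anterior muscle collected 1 month after it had received sorted teratoma-derived cells. The teratoma group came from teratomas, tumours grown from pluripotent stem cells, at 3 weeks of age. The adult group came from whole hindlimbs of 8-week-old males, and the embryo group from whole embryos at E14.5. Every sample carries the strain name 129P2/OlaHsd. The labels do not name the recipient strain, the pluripotent line, the sex of the embryos or a sort on a donor mark, so recipient cells with the same surface pattern cannot be told apart from donor cells in the transplant group. Replicates are called biological, with nothing said of separate animals; the p-values below therefore weigh group differences against a spread between libraries that may be technical.

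The mitotic programme is switched on late in each cell cycle. Cyclin-dependent kinase 1 with B-type cyclins drives entry, the spindle attaches to chromosomes through kinetochores, a checkpoint holds back the anaphase promoting complex until attachment is complete, and that ubiquitin ligase then destroys cyclins and securin to start chromosome separation and exit. Most of these genes are transcribed together in G2 by B-Myb and FoxM1 with the MuvB core complex, and are held off in resting cells by the DREAM repressor, which uses the same core. Adult satellite cells are known to rest outside the cell cycle in uninjured muscle, whereas muscle progenitors of the embryo divide.

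The genes lie on 16 chromosomes, with 9 on chromosome 2 and 5 on chromosome 11 (GENCODE annotation of GRCm38, which is mm10). The level of the programme fell into the same order for nearly every gene. The summed level of the 43 genes was 49.6, 55.1 and 88.0 FPKM in the transplant libraries, 431, 338 and 415 FPKM in the teratoma libraries, 48.1, 45.5 and 32.3 FPKM in the adult libraries and 926, 1195 and 1088 FPKM in the embryo libraries. Group means were 64.2 ± 20.8 FPKM for transplant, 395 ± 49.9 for teratoma, 42.0 ± 8.45 for adult and 1069.8 ± 135 for embryo (SD, n = 3 each). Every embryo library stood above every teratoma library, and every teratoma library above all transplant and adult libraries. The lowest transplant sum exceeded the highest adult sum by a small margin, which turned round under median-ratio scaling (54.1 FPKM for the lowest transplant and 60.3 FPKM for the highest adult library). For 36 genes the group means ran embryo, teratoma, transplant, adult from high to low, and for the other 7 (Ttk, Ndc80, Pttg1, Kif11, Hmmr, Racgap1 and Smc4) the adult mean lay above the transplant mean. The share of all genes in each of these orders was not counted. In these bulk samples, fewer cells in the cycle and less RNA of these genes per cell cannot be told apart.

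**Figure D1:**
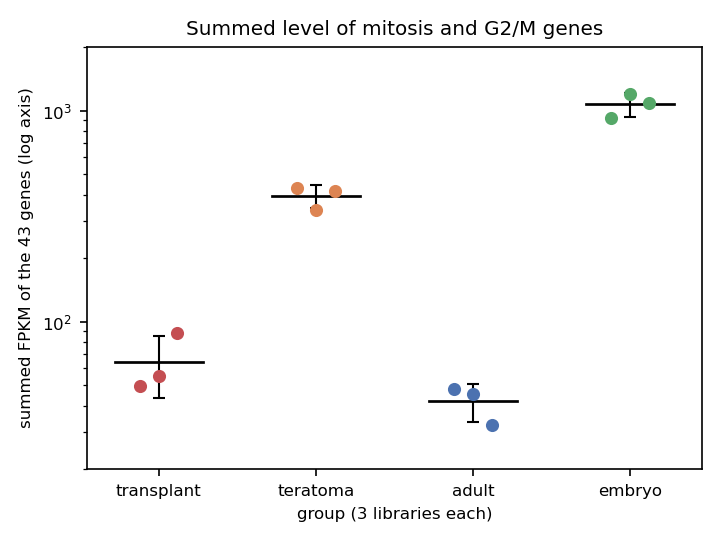
Summed level of the 43 mitosis and G2/M genes in each library, in FPKM on a log axis, for the transplant, teratoma, adult and embryo groups. Points are libraries, horizontal lines are group means and error bars are SD over 3 libraries; the means are 64.2, 395, 42.0 and 1069.8 FPKM in that order of groups.

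Gene by gene, the library values separated cleanly. In 39 of the 43 genes all 3 embryo libraries lay above all 3 teratoma libraries, which in turn lay above all 6 transplant and adult libraries; the exceptions were Ttk, Cenpa, Pttg1 and Foxm1. How many of all genes show this joint order was not counted. Over all tested genes, non-overlap by pairs was 17.4% for teratoma below embryo, 32.2% for transplant below teratoma and 45.6% for teratoma above adult. Detection was nearly complete in teratoma and embryo and partial in the other groups. Of the 43 genes, 19, 19 and 25 had at least 1 FPKM in the transplant libraries, all 43 in each teratoma library, 11, 15 and 9 in the adult libraries and 43, 42 and 43 in the embryo libraries. Entries listed at 0 numbered 3, 1 and 1 in the transplant libraries, 0 in every teratoma library, 3, 3 and 10 in the adult libraries and 0 in every embryo library. Depth is not given in the sources used here, so a gene listed at 0 is not shown to be absent. Within groups the libraries were uneven, since transplant replicate 3 was the highest of its group for 27 genes, embryo replicate 2 for 24 genes and adult replicate 3 for 6 genes.

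**Figure D2:**
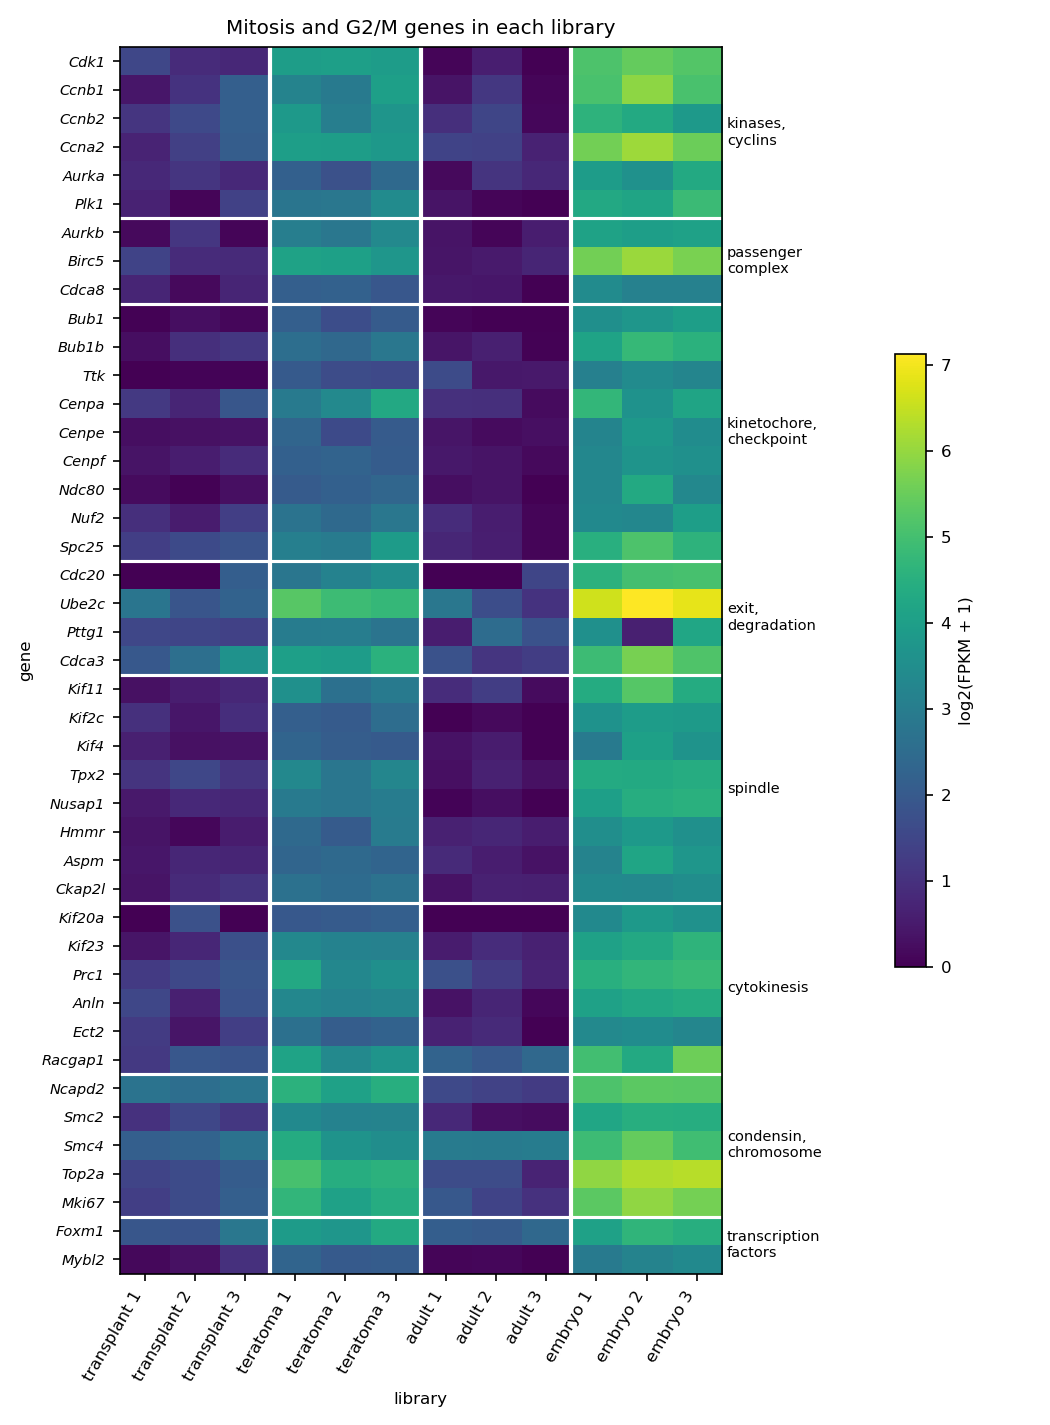
Level of each of the 43 genes (down the page, grouped by role) in each of the 12 libraries (across), as log2(FPKM + 1) from dark (0) to yellow (high). For most genes the teratoma and embryo columns are brighter than the transplant and adult columns, though low genes such as Ttk and Bub1 stay fairly dark in teratoma. Ube2c is the brightest row and Pttg1 is dark in embryo replicate 2 alone of its group.

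The mean level in one group as a percentage of another put numbers on these steps, for genes with no library at 0 in either group. The median over genes was 14.4% for transplant relative to teratoma (40 genes, Ndc80 3.68% to Cdca3 37.2%) and 155% for transplant relative to adult (31 genes, Hmmr 47.0% to Spc25 472%). Teratoma stood at a median of 38.7% of embryo (43 genes, Bub1 22.8% to Foxm1 74.2%). Adult stood at a median of 3.51% of embryo (32 genes, Birc5 0.857% to Pttg1 26.5%), and transplant at 5.59% of embryo (40 genes). The step between teratoma and embryo was small beside the step to either group from postnatal muscle. The pairs share libraries, so these percentages are not independent of each other.

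Promoter sequences showed letters that the programme is known for. In mitotic genes a cell cycle homology region (CHR), with the letters TTTGAA or TTCGAA, is bound by the MuvB core, and CCAAT boxes, bound by NF-Y, commonly lie upstream of it. RefSeq promoters of build GRCm38.p6, from 250 bases before to 50 bases after the transcription start, were found for 37 of the genes (39 promoters, since Ect2 and Prc1 have a pair each); Aurkb, Ccna2, Foxm1, Kif20a, Smc4 and Tpx2 had no entry. Both strands were searched, and a CCAAT match can share at most 1 base with a CHR match. CHR letters were found in 32 of 39 promoters (82.1%), against 6316 of all 32851 promoters (19.2%). CCAAT was found in 31 (79.5%), against 37.4% of all promoters, and at 2 or more places in 22 (56.4%), against 11.7% of all. Both motifs occurred in 29 of 39 promoters (74.4%), against 7.52% of all. Median GC content was 58.7% in these promoters and 52.7% in all promoters.

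The stretches below run from 120 bases before to 30 bases after the start, 5′ to 3′ on the gene's strand, with CHR and CCAAT matches on either strand in capitals (reverse matches read TTCAAA and ATTGG). Cdk1, Ccnb2, Top2a and Cdc20 are shown for the arrangement of both motifs, Racgap1 for 1 copy of each, and Birc5 for having neither. Their positions are chr10:69352883-69353032 (minus strand), chr9:70421525-70421674 (minus), chr11:99024160-99024309 (minus), chr4:118437314-118437463 (minus), chr15:99651627-99651776 (minus) and chr11:117849117-117849266 (plus).
Cdk1: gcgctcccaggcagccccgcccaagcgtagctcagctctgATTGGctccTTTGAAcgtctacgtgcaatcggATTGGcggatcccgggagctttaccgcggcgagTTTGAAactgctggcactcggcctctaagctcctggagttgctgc
Ccnb2: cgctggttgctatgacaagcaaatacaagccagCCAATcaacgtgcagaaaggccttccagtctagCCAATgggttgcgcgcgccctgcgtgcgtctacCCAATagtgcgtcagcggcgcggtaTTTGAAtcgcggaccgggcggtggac
Top2a: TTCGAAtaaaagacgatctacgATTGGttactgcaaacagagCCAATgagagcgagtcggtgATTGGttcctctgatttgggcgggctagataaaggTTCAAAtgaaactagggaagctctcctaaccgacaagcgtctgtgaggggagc
Cdc20: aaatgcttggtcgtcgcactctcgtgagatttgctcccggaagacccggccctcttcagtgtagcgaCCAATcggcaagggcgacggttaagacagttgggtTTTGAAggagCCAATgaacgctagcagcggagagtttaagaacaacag
Racgap1: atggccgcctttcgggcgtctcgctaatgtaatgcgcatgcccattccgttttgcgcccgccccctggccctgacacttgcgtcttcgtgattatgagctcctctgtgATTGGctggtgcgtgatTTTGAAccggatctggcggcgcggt
Birc5: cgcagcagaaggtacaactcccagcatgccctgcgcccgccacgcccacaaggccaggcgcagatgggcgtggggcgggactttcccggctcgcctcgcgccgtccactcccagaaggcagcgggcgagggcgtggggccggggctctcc
In Ccnb2, 3 CCAAT boxes in one orientation begin at -87, -54 and -21 and a CHR match begins at 5, counted from the start. In Cdk1 a pair of inverted CCAAT boxes at -80 and -48 stands near CHR matches at -71 and -15. The Racgap1 stretch holds 1 CCAAT box at -12 and 1 CHR match at 6.

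After these positions were seen, 2 patterns were counted. A CHR match beginning between -30 and 50 was found in 29 of the 39 promoters (74.4%), against 1359 of all promoters (4.14%). CCAAT boxes in the same orientation and 31 to 34 bases apart were found in 8 (20.5%), against 294 of all promoters (0.895%). Birc5, Mybl2, Nuf2, Nusap1 and Pttg1 had neither motif in the window, which says only that these letters are not in it. Levels of these 5 genes are given with the others below.

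**Figure D3:**
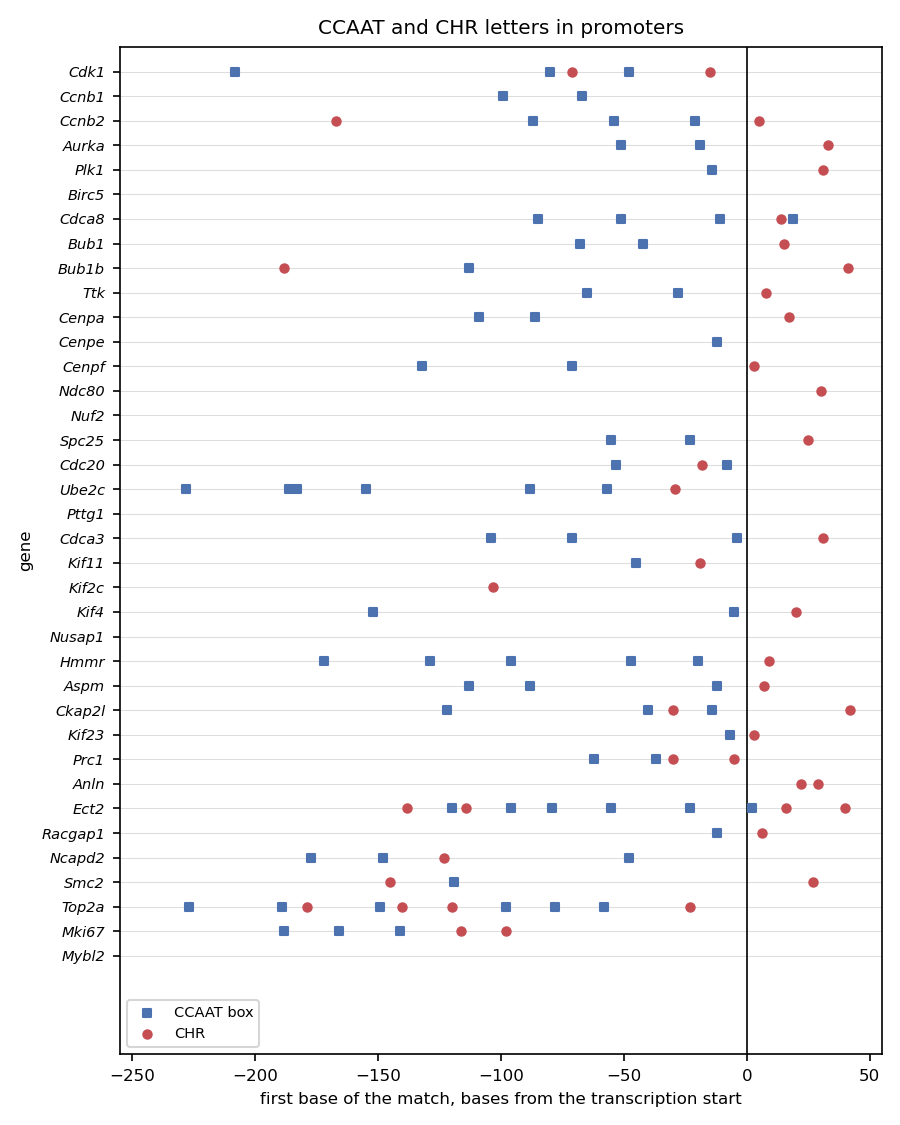
First base of each CCAAT match (squares) and each CHR match (circles), in bases from the transcription start, for the 37 genes with a promoter entry, ordered by role; the promoter pairs of Ect2 and Prc1 are drawn on 1 line each. In 29 of 39 promoters a circle falls between -30 and 50, mostly with squares to its left, and 5 genes have no symbol.

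Entry kinases and cyclins showed the full range of the programme. Cdk1, the kinase that starts mitosis, had 1.88, 0.828 and 0.745 FPKM in the transplant libraries, 14.6, 15.1 and 14.4 in the teratoma libraries, 0.0687, 0.527 and 0 in the adult libraries and 34, 42.5 and 36.6 in the embryo libraries. All teratoma values lay within a narrow band, well below embryo and far above the low transplant values, and 1 adult library was listed at 0. Its log2 change, always on the log2(FPKM + 1) scale and so understated for low genes, was -5.03 for adult against embryo (adjusted p = 3.96e-08). It was -2.91 for transplant against teratoma (adjusted p = 2.18e-05). Ccnb1, the B-type cyclin that activates Cdk1, had 0.355, 1.07 and 3.50 FPKM in the transplant libraries, 8.08, 6.53 and 15.2 in the teratoma libraries, 0.295, 1.21 and 0.0789 in the adult libraries and 33.1, 59.5 and 33.0 in the embryo libraries. Transplant replicate 3 stood above all adult libraries for this gene and transplant replicate 1 did not, so those groups overlapped. Ccna2, a cyclin of S phase and G2, had 0.633, 1.54 and 3.26 FPKM in the transplant libraries, 14.9, 14.8 and 13.0 in the teratoma libraries, 1.71, 1.60 and 0.593 in the adult libraries and 47.6, 67.1 and 45.5 in the embryo libraries; here too transplant and adult values overlapped.

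Aurka, the kinase of centrosome maturation and spindle assembly, had 0.757, 1.13 and 0.780 FPKM in the transplant libraries, 3.51, 2.39 and 4.46 in the teratoma libraries, 0.134, 1.09 and 0.748 in the adult libraries and 14.3, 11.1 and 19.2 in the embryo libraries. It showed the smallest called change of transplant against teratoma, -1.22 (95% interval -1.86 to -0.57, adjusted p = 0.0131). Ccnb2, the other B-type cyclin, and Plk1, the polo kinase of entry and cytokinesis, together ran between 0.0753 and 3.43 FPKM in transplant, 5.84 and 13.4 in teratoma, 0 and 1.79 in adult and 13.5 and 27.8 in embryo. Over the 6 genes of the class, the summed level was 8.43 ± 4.27 FPKM in transplant, 60.5 ± 8.43 in teratoma, 3.75 ± 2.39 in adult and 188 ± 24.9 in embryo (SD, n = 3 each).

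The 3 listed subunits of the chromosomal passenger complex had the lowest summed level in transplant relative to teratoma. Birc5 (survivin), which targets the complex to centromeres, had 1.71, 0.827 and 0.806 FPKM in the transplant libraries, 16.3, 15.7 and 12.3 in the teratoma libraries, 0.320, 0.431 and 0.655 in the adult libraries and 47.5, 65.6 and 50.9 in the embryo libraries. Its change for adult against embryo was the largest of the 43 genes, -5.24 (adjusted p = 2.08e-08), and so was that for transplant against embryo, -4.73 (adjusted p = 7.29e-08). Aurkb, the kinase that corrects faulty attachments, had 0.134, 1.19 and 0.0685 FPKM in the transplant libraries, 7.24, 6.12 and 9.27 in the teratoma libraries, 0.288, 0.0686 and 0.498 in the adult libraries and 16.3, 15 and 15.7 in the embryo libraries. One transplant library was above 1 FPKM and the other two were close to the lowest adult value. Cdca8 (borealin), the third subunit listed, ran from 0.132 to 0.657 FPKM in transplant, 2.84 to 3.62 in teratoma, 0 to 0.379 in adult and 7.80 to 9.94 in embryo. Summed over the 3 genes, transplant stood at 8.05% of teratoma, the lowest share of the 8 classes, whose other shares ran from 11.9% (spindle) to 22.9% (transcription factors). No test of this difference between classes was made. Cdca8 alone stood at 14.6%, beside a median of 14.4% over 40 genes. Incenp, a further subunit outside the class, had 0.909, 1.21 and 0.644 FPKM in transplant and 5.45, 3.93 and 5.13 in teratoma.

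Among kinetochore and checkpoint genes, Spc25, a subunit of the Ndc80 complex that binds microtubules, had 1.5, 2.01 and 2.54 FPKM in the transplant libraries, 7.44, 6.77 and 14 in the teratoma libraries, 0.712, 0.509 and 0.0598 in the adult libraries and 21.8, 34.2 and 23.5 in the embryo libraries. All transplant libraries lay above all adult libraries, and the change of transplant against adult was 1.09 (95% interval 0.43 to 1.76, adjusted p = 0.0118). The other subunits of that complex were not called, Ndc80 at -0.03 (adjusted p = 0.947) and Nuf2 at 0.41 (adjusted p = 0.287), and differences between subunits were not tested. Cenpa, the histone H3 variant of centromeres, had 1.27, 0.668 and 2.76 FPKM in the transplant libraries, 6.55, 9.31 and 18.6 in the teratoma libraries, 0.989, 0.930 and 0.162 in the adult libraries and 25.1, 11.4 and 17.1 in the embryo libraries. Teratoma replicate 3 was above 2 of the 3 embryo libraries, and teratoma against embryo did not pass the test (-0.65, 95% interval -1.56 to 0.27, adjusted p = 0.292).

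Ttk (Mps1), the kinase at the head of the checkpoint, had 0, 0.0470 and 0.0447 FPKM in the transplant libraries, 3.04, 2.16 and 2.00 in the teratoma libraries, 2.09, 0.363 and 0.412 in the adult libraries and 7.57, 9.79 and 8.43 in the embryo libraries. All transplant values were at or near 0 and adult replicate 1 reached a teratoma level. In the fit on all 12 libraries it was the only one of the 43 genes called lower in transplant than in adult, -0.81 (adjusted p = 0.0497), a call kept in 7 of 18 alternative settings. On the transplant and adult libraries alone Ttk did not pass the filter. The remaining 6 genes of the class were the checkpoint proteins Bub1 and Bub1b, the kinetochore motor Cenpe, the kinetochore protein Cenpf, and Ndc80 and Nuf2. They ran from 0.0297 to 1.5 FPKM in transplant, 2.04 to 6.13 in teratoma, 0 to 0.881 in adult and 8.30 to 26.3 in embryo, so none of them overlapped between teratoma and either group from postnatal muscle.

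The class of mitotic exit and protein degradation held both the gene with the highest embryo level and the one not called in adult against embryo. Ube2c, the ubiquitin-conjugating enzyme of the anaphase promoting complex, had 5.77, 2.66 and 3.70 FPKM in the transplant libraries, 37.8, 28.5 and 25.8 in the teratoma libraries, 6.08, 2.2 and 1.05 in the adult libraries and 96.4, 139 and 116 in the embryo libraries. Embryo was far above the rest, and transplant overlapped adult. Of the annotated exon bases of Ube2c, 22.8% (592 bases) are shared with Tnnc2, the fast muscle troponin C gene on the opposite strand. Tnnc2 was listed at 9.57, 8.46 and 9.84 FPKM in transplant, 5.47, 24.0 and 17.7 in teratoma, 0.652, 0.115 and 0.916 in adult and 0.0919, 1.60 and 0.103 in embryo. Whether strand was used in counting is not given in the sources used here, so reads of Tnnc2 in the shared bases cannot be told apart from those of Ube2c. Tnnc2 was listed above Ube2c in every transplant library, so the transplant level of Ube2c is uncertain, while in embryo Tnnc2 stood at 1.60 FPKM or less.

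Cdca3, a protein that promotes mitotic entry through degradation of Wee1, had 2.92, 5.09 and 11.3 FPKM in the transplant libraries, 15.4, 14.2 and 22.3 in the teratoma libraries, 2.5, 1.14 and 1.43 in the adult libraries and 28.8, 49.4 and 34.9 in the embryo libraries. All transplant libraries were above all adult libraries, and its change of transplant against adult was the largest of the 43 genes, 1.34 (95% interval 0.52 to 2.16, adjusted p = 0.0124). Cdc20, the activator of the complex, had 0, 0 and 3.38 FPKM in the transplant libraries, 5.94, 7.99 and 10.2 in the teratoma libraries, 0, 0 and 1.8 in the adult libraries and 22.7, 30.9 and 31.9 in the embryo libraries. It was listed at 0 in 2 transplant and 2 adult libraries and was above 1 FPKM in all others.

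Pttg1 (securin), the inhibitor of separase, departed from the programme, mainly in embryo replicate 2. It had 1.85, 1.82 and 1.61 FPKM in the transplant libraries, 7.0, 7.16 and 5.68 in the teratoma libraries, 0.486, 4.70 and 2.45 in the adult libraries and 10.8, 0.549 and 17.5 in the embryo libraries. Embryo replicate 2 was the lowest embryo value by far and lay below every transplant library, while adult replicate 2 came close to the teratoma values. Over all genes, embryo replicate 2 had 74 entries at 0 where both other embryo libraries had at least 5 FPKM. The remaining libraries had 6 to 27 such entries within their groups. None of the 7 tests called Pttg1 (adult against embryo -1.18, 95% interval -2.79 to 0.43, adjusted p = 0.201). Without embryo replicate 2, adult against embryo was -2.26 (adjusted p = 0.00133), and the gene was called in the same direction as the other 42 in transplant against teratoma, transplant against embryo, teratoma against adult and adult against embryo. Teratoma against embryo was 0.12 with that library and -0.96 without it.

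Spindle genes were low in both groups from postnatal muscle. Kif11 (Eg5), the motor that separates spindle poles, had 0.242, 0.474 and 0.749 FPKM in the transplant libraries, 10.8, 5.21 and 6.54 in the teratoma libraries, 0.866, 1.47 and 0.162 in the adult libraries and 19.9, 36.7 and 19.98 in the embryo libraries. Tpx2, the spindle factor that activates Aurora A, had 1.09, 1.87 and 1.10 FPKM in the transplant libraries, 9.13, 5.94 and 8.73 in the teratoma libraries, 0.216, 0.580 and 0.237 in the adult libraries and 19.4, 19.2 and 20.2 in the embryo libraries. For Tpx2 all transplant libraries exceeded all adult libraries (0.80, adjusted p = 0.0148), and for Kif11 they did not. Kif2c (MCAK), a microtubule-depolymerising kinesin, had 0.977, 0.339 and 0.893 FPKM in the transplant libraries, 3.44, 3.15 and 4.83 in the teratoma libraries, 0, 0.142 and 0 in the adult libraries and 11.5, 14.4 and 13.7 in the embryo libraries. Its transplant values were above its adult values in all libraries, by the smallest change called higher in that comparison (0.71, 95% interval 0.18 to 1.24, adjusted p = 0.0314). All these transplant and adult values were under 1 FPKM, and Kif2c entered the test only through its teratoma and embryo levels.

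Ckap2l, a spindle-associated protein, had 0.306, 0.790 and 1.09 FPKM in the transplant libraries, 5.37, 4.61 and 5.4 in the teratoma libraries, 0.278, 0.588 and 0.549 in the adult libraries and 9.38, 9.12 and 10.2 in the embryo libraries. It showed the smallest called change of teratoma against embryo, -0.79 (95% interval -1.3 to -0.28, adjusted p = 0.0265). Hmmr, a spindle-associated hyaluronan receptor, had 0.291, 0.0836 and 0.446 FPKM in the transplant libraries, 4.38, 3.16 and 6.84 in the teratoma libraries, 0.573, 0.694 and 0.479 in the adult libraries and 10.4, 13.3 and 11 in the embryo libraries. Its adult libraries all lay above its transplant libraries, and that difference did not pass the test (-0.32, 95% interval -0.89 to 0.25, adjusted p = 0.347). The chromokinesin Kif4, the microtubule-binding protein Nusap1 and the spindle pole protein Aspm ran from 0.244 to 0.752 FPKM in transplant, 3.04 to 6.97 in teratoma, 0 to 0.805 in adult and 6.56 to 21.9 in embryo.

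Cytokinesis genes followed the same order of groups, except that the adult mean of Racgap1 lay above its transplant mean. Racgap1, which with Kif23 forms centralspindlin at the spindle midzone, had 1.28, 2.82 and 2.60 FPKM in the transplant libraries, 16.5, 9.18 and 12 in the teratoma libraries, 3.86, 3.00 and 4.29 in the adult libraries and 30.3, 19.2 and 46.0 in the embryo libraries. The adult values all lay above the transplant values, and the difference did not pass the test (-0.57, 95% interval -1.27 to 0.13, adjusted p = 0.174). Prc1, which bundles midzone microtubules, had 1.3, 1.91 and 2.70 FPKM in the transplant libraries, 18.7, 8.88 and 10.8 in the teratoma libraries, 2.34, 1.36 and 0.639 in the adult libraries and 21.7, 24.6 and 26.7 in the embryo libraries. Kif20a, the midzone motor that carries the passenger complex, had 0, 2.40 and 0 FPKM in the transplant libraries, 2.87, 3.10 and 3.44 in the teratoma libraries, 0, 0 and 0 in the adult libraries and 9.34, 13.1 and 11.1 in the embryo libraries. With all 3 adult libraries at 0, no fold against adult is given for Kif20a, and its single transplant value above 0 came from replicate 2. Kif20a shares 29.3% of its exon bases (1271 bases) with Cdc23 on the opposite strand. Cdc23, a subunit of the anaphase promoting complex, was listed at 9.00, 5.60 and 8.10 FPKM in the transplant libraries, 9.75, 7.59 and 8.41 in the teratoma libraries, 4.51, 3.31 and 0 in the adult libraries and 19.1, 23.2 and 24.7 in the embryo libraries. It was above Kif20a in every library but adult replicate 3, where both were listed at 0, so the Kif20a levels above 0 are uncertain.

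Anln (anillin), a scaffold of the contractile ring, had 1.84, 0.545 and 2.49 FPKM in the transplant libraries, 8.90, 7.91 and 8.53 in the teratoma libraries, 0.282, 0.660 and 0.101 in the adult libraries and 15.8, 18.5 and 19.9 in the embryo libraries. It was called higher in transplant than in adult (0.90, 95% interval 0.26 to 1.54, adjusted p = 0.0258), although transplant replicate 2 overlapped the adult values. On the transplant and adult libraries alone Anln did not pass the filter. Kif23 and Ect2, the exchange factor that activates RhoA at the cleavage site, ran from 0.314 to 2.37 FPKM in transplant, 3.33 to 9.06 in teratoma, 0 to 0.860 in adult and 8.58 to 23.8 in embryo. The 6 genes of the class summed to 17.9% of teratoma in transplant, and to 43.1% of embryo in teratoma.

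Chromosome structure genes included Smc4, the gene with the highest adult mean of the 43. Top2a, the topoisomerase that untangles sister chromatids, had 1.78, 2.08 and 3.22 FPKM in the transplant libraries, 31.9, 20.6 and 22.7 in the teratoma libraries, 2.18, 2.13 and 0.625 in the adult libraries and 60.8, 77.3 and 80.7 in the embryo libraries. Its change of transplant against teratoma was the largest of the 43 genes, -2.96 (95% interval -3.58 to -2.33, adjusted p = 4.98e-05). Mki67 (Ki-67), which coats mitotic chromosomes and is widely used as a proliferation marker, had 1.49, 2.08 and 3.50 FPKM in the transplant libraries, 25.0, 16 and 20.2 in the teratoma libraries, 2.91, 1.68 and 1.02 in the adult libraries and 39.5, 60.9 and 48.7 in the embryo libraries. For both genes transplant and adult values overlapped.

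Among the condensin subunits of the class, the transplant mean lay below the adult mean for Smc4 and above it for Smc2 and Ncapd2. Differences between these subunits were not tested. Smc4, a core subunit of both condensins, had 3.48, 3.80 and 5.47 FPKM in the transplant libraries, 19.98, 11.7 and 10.2 in the teratoma libraries, 6.78, 6.56 and 7.0 in the adult libraries and 28.8, 42.2 and 29.7 in the embryo libraries. Its adult libraries were tightly grouped and above every transplant library, though transplant against adult did not pass the test (-0.59, 95% interval -1.14 to -0.04, adjusted p = 0.0787). Its partner Smc2 had 1.04, 1.87 and 1.23 FPKM in the transplant libraries, 9.53, 7.93 and 8.19 in the teratoma libraries, 0.752, 0.227 and 0.170 in the adult libraries and 17.5, 21.0 and 20.6 in the embryo libraries. Here transplant was above adult in all libraries (0.79, 95% interval 0.29 to 1.3, adjusted p = 0.0153). Ncapd2, a non-SMC subunit of condensin I, had 5.61, 5.01 and 5.69 FPKM in the transplant libraries, 23.1, 15.9 and 21.2 in the teratoma libraries, 2.00, 1.65 and 1.36 in the adult libraries and 34, 39.4 and 38.6 in the embryo libraries. It too was higher in all transplant libraries than in any adult library (1.28, 95% interval 0.87 to 1.68, adjusted p = 0.000202). Ncapd2 shares 3.78% of its exon bases with Scarna10, a small RNA gene inside it that was listed at 251 FPKM in adult replicate 1 and at 0 in the other 11 libraries; adult replicate 1 was the highest adult value of Ncapd2.

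Both transcription factors of the programme were measured. Foxm1, the forkhead factor of G2 genes, had 2.75, 2.64 and 6.03 FPKM in the transplant libraries, 14, 12.5 and 19.1 in the teratoma libraries, 3.35, 3.15 and 4.33 in the adult libraries and 15.8, 24.5 and 21.1 in the embryo libraries. Its teratoma mean was 74.2% of its embryo mean, the highest such share of the 43 genes, and the log2 change of teratoma against embryo did not pass the test (-0.41, 95% interval -1.02 to 0.20, adjusted p = 0.320). Transplant and adult overlapped, with a change of 0.00 (95% interval -0.61 to 0.61). Mybl2 (B-Myb), which acts with the MuvB core, had 0.121, 0.252 and 0.977 FPKM in the transplant libraries, 3.88, 3.07 and 3.18 in the teratoma libraries, 0.0618, 0.0899 and 0 in the adult libraries and 6.47, 8.09 and 9.53 in the embryo libraries. Its transplant libraries were all above its adult libraries, 1 of which was listed at 0, and that difference did not pass the test (0.42, 95% interval -0.15 to 0.99, adjusted p = 0.213).

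Nearly the whole programme was lower in transplant than in teratoma. Donor and recipient cells cannot be told apart in the transplant group. A gene that fell or rose is therefore one called lower or higher between sorted samples. Of the 43 genes, 42 fell in transplant against teratoma and none rose, beside 18.5% of all 12699 tested genes called lower and 4.18% called higher (limma, Benjamini-Hochberg adjusted p under 0.05, as for all calls here). Changes of the 42 ran from -2.96 (Top2a) to -1.22 (Aurka), with a largest adjusted p of 0.0223. The median change over the 43 was -1.92, and over all tested genes it was -0.28. All 43 genes had non-overlapping libraries, lower in transplant, as did 32.2% of all genes. The gene not called was Pttg1 (-1.46, adjusted p = 0.180).

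In transplant against adult, few genes differed and most of those were higher. The test called 8 genes higher and 1 lower, beside 27.3% and 16.9% of all tested genes. Most of the 43 genes entered this test only because they were high in teratoma or embryo, so the shares cannot be read against each other directly. In a fit on the transplant and adult libraries alone, 16 of the 43 passed the filter, of which 5 were called higher and 1 lower, beside 3636 higher and 2367 lower of 10771 genes. In the fit on all 12 libraries, the 8 were Cdca3, Ncapd2, Spc25, Anln, Cdk1, Tpx2, Smc2 and Kif2c, and the 1 was Ttk. Of these, Anln, Cdk1, Kif2c and Ttk did not pass the filter on the transplant and adult libraries alone. The gene called lower in that smaller fit was therefore not Ttk. Libraries did not overlap for 10 genes, higher in transplant (35% of all genes), and for 4, lower in transplant (22.6% of all genes). The median change was 0.31 over the 43 and 0.23 over all tested genes, and under quantile normalization it was -0.01 over the 43 and -0.02 over all tested genes. Intervals were wide for genes not called, such as Ccnb1 (0.68, 95% interval -0.31 to 1.67) and Ccnb2 (0.75, -0.08 to 1.58), so equal levels are not shown. Under quantile normalization the split was 1 higher and 3 lower, without adult replicate 3 it was 3 higher and 1 lower, and without transplant replicate 1 it was 5 higher and none lower. Over all genes the same settings gave 2519 higher and 2721 lower of 12699, 2938 and 1781 of 12615, and 2836 and 1734 of 12586. Ncapd2 was called in all 20 alternative settings and Cdca3 in 19.

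**Figure D4:**
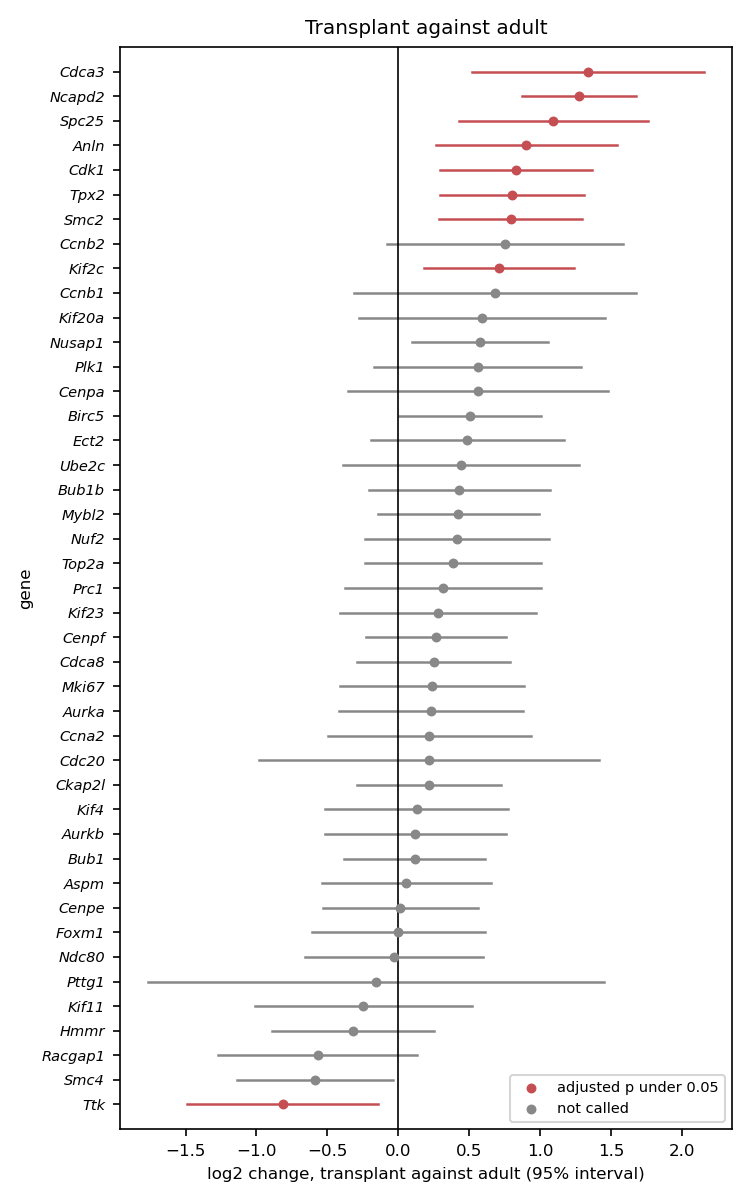
Log2 change of transplant against adult for each of the 43 genes, ordered by size, with 95% intervals on the log2(FPKM + 1) scale; positive is higher in transplant and red marks the 9 called genes. Changes run from 1.34 (Cdca3) to -0.81 (Ttk), and most intervals cross 0.

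The transplant and teratoma groups were both below embryo. In transplant against embryo, 42 genes fell and none rose, beside 27.6% and 14.9% of all tested genes, and libraries of 42 genes did not overlap, lower in transplant, as for 32.8% of all genes. The median change was -3.14 over the 43 and -0.24 over all genes. These changes ran from -4.73 (Birc5) to -2.21 (Foxm1), and Pttg1 was not called (-1.34, adjusted p = 0.167). In teratoma against embryo, 38 genes fell and none rose, beside 10.6% and 15.5% of all tested genes, with a median of -1.29 against 0.01 over all genes. The largest of these was Ccnb1 (-1.99, 95% interval -2.99 to -1.0, adjusted p = 0.00720). Libraries of 40 genes did not overlap, lower in teratoma, as for 17.4% of all genes. The 5 genes not called were Cdca3 (-1.07), Ccnb2 (-0.73), Cenpa, Foxm1 and Pttg1. With a pseudocount of 0.1 in place of 1, 18 genes were called lower. Over all 12699 tested genes, 903 were then called lower, against 1343 with a pseudocount of 1.

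Teratoma cells were above adult cells, and adult cells below embryo cells, almost throughout. Teratoma against adult had 42 genes higher and none lower, beside 36.4% and 8.94% of all tested genes, with a median of 2.25 against 0.50 over all genes. Libraries of 42 genes did not overlap, higher in teratoma, as for 45.6% of all genes. The called changes ran from 3.74 (Cdk1, adjusted p = 1.04e-06) to 0.89 (Smc4, adjusted p = 0.0131). Adult against embryo had 42 lower and none higher, beside 36.9% and 15.8% of all tested genes, with a median of -3.65 against -0.42 over all genes. Libraries of 42 genes did not overlap, lower in adult, as for 40.1% of all genes. The called changes ran from -5.24 (Birc5) to -2.13 (Smc4), all with an adjusted p of at most 4.57e-05.

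A scaling by median ratios moved the all-gene median for adult against embryo to -0.03, for transplant against teratoma to -0.03, for transplant against embryo to 0.00, for teratoma against adult to 0.11 and for transplant against adult to 0.09. The median of the 43 genes under that scaling was -3.40, -1.67, -2.89, 2.01 and 0.23 in the same order of comparisons. The split of all called genes then moved as well, in adult against embryo to 3291 higher and 3281 lower, against 2007 higher and 4692 lower unscaled. In transplant against teratoma it moved to 924 higher and 1184 lower, against 531 and 2343 unscaled. In transplant against embryo the split moved to 2551 higher and 2406 lower, against 1889 and 3505, and in teratoma against adult to 2893 and 2595, against 4628 and 1135. Quantile normalization moved that of transplant against adult to 2519 higher and 2721 lower, against 3462 and 2150.

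The step of transplant against teratoma was compared with the step between the native stages, using 2 pairs of groups that share no library. The change of transplant against teratoma was smaller in size than that of adult against embryo for 34 genes by a test of the difference itself, and larger for none. With a pseudocount of 0.1 in place of 1 it was called for 23 genes, and under quantile normalization for 26. Over all 12699 tested genes, these settings called a positive difference for 2579 and 2269, against 2762 in the main fit. In the main fit, 21.7% of all tested genes had a called positive difference and 17.2% a called negative one. The median difference was 1.55 log2 over the 43 genes and 0.20 over all tested genes. By construction, this difference is also the change of transplant against adult minus that of teratoma against embryo. The medians of those changes over the 43 genes were 0.31 and -1.29. The difference therefore largely restates the gap between teratoma and embryo given above and is not a separate result. For Ccnb1 the transplant step was -2.15 and the adult step -4.82, a difference of 2.67 (95% interval 1.27 to 4.08, adjusted p = 0.00667). For Spc25 the steps were -1.74 and -4.27, a difference of 2.53 (95% interval 1.59 to 3.47, adjusted p = 0.000829). For Ckap2l, with the smallest called difference, they were -1.85 and -2.85, a difference of 1.00 (95% interval 0.28 to 1.72, adjusted p = 0.0306).

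These differences are on the log2(FPKM + 1) scale, which compresses values below 1 FPKM, where most adult and many transplant values lay. The 9 genes without a called difference were Pttg1, Foxm1, Smc4, Racgap1, Ttk, Hmmr, Aurkb, Cenpa and Cdc20. Among them Foxm1 had steps of -1.80 and -2.21 (difference 0.40, 95% interval -0.46 to 1.27) and Cdc20 -2.44 and -4.37 (difference 1.93, 95% interval 0.24 to 3.62).

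**Figure D5:**
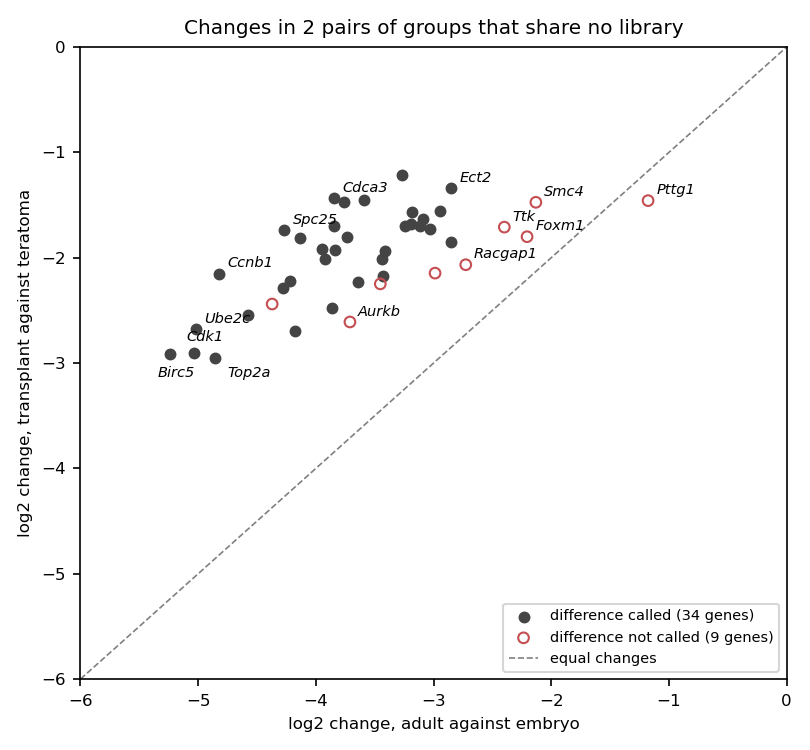
Log2 change of transplant against teratoma (vertical) and of adult against embryo (horizontal) for each of the 43 genes, on the log2(FPKM + 1) scale; the dashed line marks equal changes, filled points a called difference and open points none. All genes but Pttg1 lie above the line, and 34 of 43 differences were called.

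Other genes of mitosis and of neighbouring machinery were followed as lists. Of 84 further mitotic genes, 77 were in the table and tested. In transplant against teratoma 62 fell and none rose (median -1.35), beside 18.5% and 4.18% of all tested genes (median -0.28). In transplant against adult 4 were higher and 5 lower (median 0.21), beside 27.3% and 16.9% of all. In transplant against embryo 73 fell and none rose (27.6% and 14.9% of all), and in teratoma against adult 64 were higher and 1 lower (36.4% and 8.94% of all). In teratoma against embryo 2 were higher and 42 lower, beside 15.5% and 10.6% of all. In adult against embryo 1 was higher and 70 lower (median -2.53), beside 15.8% and 36.9% of all (median -0.42). The largest falls of adult against embryo were those of the chromokinesin Kif22 (-4.05), the Cdk subunit Cks1b (-3.76) and the kinase Pbk (-3.63).

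Ccnf, which encodes cyclin F, was the gene of that list called higher in adult than in embryo. It had 0.716, 1.42 and 1.48 FPKM in the transplant libraries, 6.25, 3.64 and 3.13 in the teratoma libraries, 27.7, 29.9 and 18.9 in the adult libraries and 8.63, 12.5 and 12 in the embryo libraries. The adult group had the most and the transplant group the least, with no overlap between any pair of groups. The change of adult against embryo was 1.13 (adjusted p = 0.00418) and that of transplant against adult was -3.58 (adjusted p = 3.94e-06).

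The core of the anaphase promoting complex, the ligase that Cdc20 and Ube2c serve, was followed next. Of its 14 tested genes, 2 fell in transplant against teratoma (18.5% of all tested genes fell), 7 were higher and 1 lower in transplant against adult (27.3% and 16.9% of all), and 10 fell in transplant against embryo (27.6% of all). In teratoma against embryo 4 fell (10.6% of all), and in adult against embryo 11 fell (36.9% of all), with a median of -1.54. Cohesin, which holds sister chromatids together, had 9 tested genes, of which 4 fell in transplant against teratoma (18.5% of all fell). In adult against embryo 6 of the cohesin genes fell (36.9% of all) and 2, the loader Nipbl and the release factor Wapal, rose (15.8% of all). Of 11 DREAM and MuvB genes, 3 fell in transplant against teratoma, and in transplant against adult 1 was higher (Rbl2, the pocket protein p130, 1.28) and 2 lower, beside 18.5% and 16.9% of all genes called lower in those comparisons and 27.3% called higher in the second. Of 8 G1 cyclins and kinases, 3 fell in transplant against teratoma and all 8 fell in adult against embryo (36.9% of all genes). In transplant against adult 5 were higher and none lower (27.3% and 16.9% of all), among them Ccnd3 (4.57) and Ccnd2 (3.50). Ccnd3 had 39.7, 41.3 and 44.7 FPKM in transplant and 0, 4.83 and 0 in adult. An exact 0 can be a failed estimate, so the size of the Ccnd3 change is uncertain.

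Markers of other cells moved with some of the groups. All 5 muscle progenitor markers (Pax7, Myf5, Myod1, Itga7 and Vcam1) were at or above 1 FPKM in all 12 libraries, with sums of 226 to 322 FPKM in transplant, 223 to 327 in teratoma, 538 to 677 in adult and 102 to 112 in embryo. Myod1 made up most of the adult sum (343 to 442 FPKM), while Pax7 was lowest in adult (8.24 to 10.1 FPKM). Sums of 6 erythroid markers ran from 0.743 to 0.811 FPKM in transplant, 10.1 to 42.1 in teratoma, 3.72 to 24.8 in adult and 254 to 1517 in embryo. Sums of 5 epithelial markers ran from 0.0963 to 0.435 in transplant, 89.8 to 263 in teratoma, 0.634 to 1.99 in adult and 4.02 to 18.4 in embryo. By these sums, erythroid markers were highest in embryo and lowest in transplant, and epithelial markers were highest in teratoma. Single erythroid markers did not all follow the sum. Hba-a1 had 0, 0 and 269 FPKM in embryo and 1.90, 3.31 and 36.4 in teratoma. Alas2 had 3.49, 2.90 and 5.65 FPKM in embryo and 1.69, 1.31 and 4.74 in teratoma.

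Sums of 6 leukocyte markers ran from 12.2 to 23.7 FPKM in transplant, 36.7 to 116 in teratoma, 7.18 to 15.6 in adult and 2.58 to 11.3 in embryo. Ptprc, Cd52 and Tyrobp were at 0 in all adult libraries. Cd68, the highest of the 6 in adult, had 7.06, 6.74 and 10.5 FPKM there and 6.95, 5.89 and 13.0 in teratoma. Its transplant values were 1.51, 5.29 and 1.57 and its embryo values 1.97, 6.27 and 0.392. Sums of 5 endothelial markers ran from 6.47 to 9.19 in transplant, 32.1 to 39.8 in teratoma, 12.5 to 17.7 in adult and 16.3 to 27.3 in embryo. Sums of 5 fibroblast markers ran from 2487 to 4073 in transplant, 1168 to 2180 in teratoma, 604 to 860.5 in adult and 1166 to 1685 in embryo. Sums of 6 neural markers ran from 3.09 to 8.62 in transplant, 8.08 to 12.8 in teratoma, 4.0 to 7.54 in adult and 16.6 to 19.7 in embryo. By these sums, fibroblast markers were highest in transplant, endothelial and leukocyte markers in teratoma and neural markers in embryo. Single markers did not all follow the sums. Tek had 2.48, 2.14 and 3.02 FPKM in teratoma and 8.41, 3.53 and 5.55 in embryo. Sox2 had 4.42, 4.16 and 1.07 FPKM in teratoma and 0.886, 1.32 and 1.63 in embryo. Pdgfra overlapped between transplant and embryo. The 4 pluripotency markers summed to at most 0.885 FPKM in any library. At 0 in all libraries of their group were Cd52, Slc4a1, Epcam, Pou5f1 and Dppa5a in transplant, Klf1, Pou5f1 and Utf1 in teratoma, Hbb-y, Krt8, Dppa5a and Utf1 in adult (beside the 3 leukocyte genes), and Cd52, Tyrobp, Pou5f1 and Dppa5a in embryo. The part of these cells in the levels of the mitotic genes was not tested.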

How the data were processed

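Sorted cells gave RNA on RNeasy columns with DNase I, and the library kit was SMARTer Stranded Total RNA-seq (Pico input), per the labels' protocols. Per the submitters' processing notes, the tools were Cufflinks 2.2.1.0, TopHat 0.7, Partek and CASAVA 1.8.2, on mm10, with no roles stated. The sources used here do not state depth, annotation or whether strand was used. Deposited was a table of FPKM values by gene symbol with 23746 entries, per the file headers. Summing the 240 repeated symbols left 23284. An exact 0 can be a failed estimate. From 9495 to 12000 genes had at least 1 FPKM per library.

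Tests used limma 3.58.1 in R 4.3.3 on log2(FPKM + 1), with an intensity trend and 1 mean per group over all 12 libraries. The 12699 genes reaching 1 FPKM in 3 or more libraries were tested, p-values were Benjamini-Hochberg adjusted over all of them per comparison, and an adjusted p under 0.05 made a call. Alternatives changed the pseudocount, the filter, the scaling, the libraries fitted and a replicate block.

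The members, lists and tests were chosen with earlier results of these data known. Values in every library are given for the 2 members of each class with the highest mean, for the called members with the largest and smallest change, for members moving against the rest and for those not called in adult against embryo; Anln, Cdc20, Hmmr, Kif20a, Ncapd2 and Smc2 were added after their values were seen. Exon overlap on the opposite strand also touches Kif4 (15.1%, Pdzd11), Ccna2 (12.5%, Exosc9) and Prc1 (11.1%, Rccd1), and Ccnb1, Ccnb2 and Kif4 have pseudogenes, so these levels are uncertain. One erythroid marker of the lists is not reported here and is left out of the sums.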

Additional observations from a re-analysis of the deposited data

Results flagged for a closer look

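The step of transplant against teratoma and the step of adult against embryo differed by a test of the difference itself for 34 of the 43 genes. For each of them the step of transplant against teratoma was smaller in size. By construction this difference also holds the gap between teratoma and embryo, so it is not separate from that gap. The difference was 2.67 log2 for Ccnb1, 2.53 for Spc25 and 1.00 for Ckap2l, on the log2(FPKM + 1) scale. In both steps every library of the lower group was below every library of the other group for these 3 genes. Groups of 3 libraries were too small for the check on single outlying samples.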

How the results depend on the processing

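Calls are given as counts of the 43 genes. With a mean of at least 5 FPKM required, only 27 were tested. Of these, 26 were called in transplant against teratoma, transplant against embryo, teratoma against adult and adult against embryo, 21 in teratoma against embryo and 20 in the difference between the steps. The genes not called in teratoma against embryo in the main fit were all among the 27, and the reason for the count of 21 was not tested. Under that filter, 816 of all 7068 genes tested were called lower in teratoma against embryo. With a pseudocount of 0.1, 18 were called in teratoma against embryo, beside 903 lower of all 12699 genes (1343 with a pseudocount of 1). Under quantile normalization 4 (1 higher, 3 lower) were called in transplant against adult, beside 2519 higher and 2721 lower of all 12699. The cause was not tested for either count. Leaving out each library in turn gave 40 to 43 in transplant against teratoma and 4 to 9 in transplant against adult. It gave 42 to 43 in transplant against embryo, 40 to 43 in teratoma against adult and 29 to 39 in teratoma against embryo. For adult against embryo it gave 42 to 43, and for the difference 29 to 34. Over all genes, it gave 791 to 1288 called lower in teratoma against embryo. Pttg1 changed sign in teratoma against embryo, to -0.10 under quantile normalization and -0.96 without embryo replicate 2, and in the difference, to 0.16 without adult replicate 2 and 0.80 without embryo replicate 2 (leaving out single libraries gave -0.96 to 0.82 for teratoma against embryo and -0.98 to 0.80 for the difference); of 102 gene results followed, the other 100 kept their sign. Replicate numbers did not pair the libraries (correlations of deviations for the same number from -0.0951 to 0.0956); a replicate block gave 42 calls in transplant against teratoma, transplant against embryo, teratoma against adult and adult against embryo, 8 in transplant against adult, 35 in teratoma against embryo and 32 for the difference. Depth is unknown, so no detection limit can be given for genes listed at 0.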
